A study of Homo sapiens with 2 samples.

Results

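SCD and PTGES encode enzymes that act on lipids, and PLBD2 encodes a lysosomal protein related to the phospholipases B. Together these genes held 5 of the 647 peaks in the deposited acRIP-seq comparison of A549 cells with and without NAT10. All rows of the peak table with one of these gene names were taken, which gave 3 peaks for SCD, 1 for PTGES and 1 for PLBD2. The 3 genes were picked by name from a table whose log2 fold changes were already known, so those values are given as a description and support nothing further. In 3 of the 5 peaks, 1 in each gene, the log2 fold change after NAT10 knockout lay under -1, where 18.7% of all listed peaks lay. The remaining peaks of SCD lay near 0 in the coding sequence and slightly above 0 at the far end of the 3'UTR.

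A549 is a human lung adenocarcinoma cell line. One library came from unedited cells (labelled Control, the wild type of the study) and 1 from cells in which NAT10 had been removed with CRISPR/Cas9 (labelled NAT10 ko). Per the study's methods, the knockout line was transfected, selected with puromycin and grown from a single cell, so these steps and the clone cannot be told apart from the loss of NAT10. In acRIP-seq, fragmented RNA that carries N4-acetylcytidine (ac4C) is captured with an antibody and sequenced, and peaks are the transcript segments where the pull-down holds more reads than the input RNA. NAT10 is the acetyltransferase that writes ac4C on RNA, and the comparison asks at which transcripts the mark changes when it is lost. NAT10 itself was not analysed here, so the peak table gives no check of the knockout. The study checked its knockout line by sequencing, qRT-PCR and Western blot, and reports less NAT10 and less ac4C on a dot blot.

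SCD, stearoyl-CoA desaturase, sits in the membrane of the endoplasmic reticulum and places a double bond in saturated fatty acids, which turns stearate into oleate. PTGES, microsomal prostaglandin E synthase-1, converts prostaglandin H2 made by the cyclooxygenases into prostaglandin E2, a lipid mediator of inflammation. PLBD2, phospholipase B domain containing 2, is a soluble glycoprotein of the lysosome related to the phospholipases B. These genes lie in separate pathways and share no sequence family.

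For each peak the table holds 1 enrichment over input, as a fold, and 1 log2 fold change between the libraries, both from the authors' peak caller, and no value for a single library. A log2 fold change below 0 was read as less signal in the NAT10 ko library than in the Control library, and the direction is not stated in the table. How the caller scaled the libraries, and whether this value was taken relative to the input of each library, is not stated in the sources used here. It is therefore not known whether a value describes the mark per transcript or the pull-down signal alone. A peak was called lower under -1 and called higher over 1. Over all listed peaks, 18.7% were called lower and 17.5% were called higher, with a median of 0.05. The deposited p-values of the difference compare these 2 libraries and not the conditions, because each condition has 1 library and no spread between replicates could be measured. The table holds no read counts, so the depth of a peak is unknown and no interval can be given. Whether a change of the mark or a change of the transcript's level moved a peak was not tested.

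Markers gave a limited check of the label. Of 10 genes chosen to mark the A549 line, 4 (KRT19, ALDH1A1, AKR1B10 and NQO1) had listed peaks, and their 9 peaks had log2 fold changes from -0.72 to 0.82. Of 9 smooth muscle genes, 7 had listed peaks. All 16 of these peaks lay below 0, from -9.47 to -0.33, and 15 were called lower. Their median fold enrichment was 20.4, against 2.11 for the A549 markers. More of the smooth muscle genes than of the A549 markers thus had listed peaks, so the check did not by itself bear out the label. The part of smooth muscle RNA in the SCD, PTGES and PLBD2 values was not tested. Without the smooth muscle peaks, 106 of 631 peaks (16.8%) were called lower. None of 13 fibroblast, blood, endothelial and adipocyte markers had a listed peak, which is no measure of their RNA, since a transcript without a peak is not listed.

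PLBD2 (ENSG00000151176) had the lowest value of the 5 peaks. Its peak lies at chr12:113390071-113391027 on the plus strand (hg38), was assigned to the 3'UTR, and ends 602 bases before the 3' end of the gene in the RefSeq annotation. The deposited log2 fold change was -1.63, a ratio of 0.323 between the libraries, and the authors' p of the difference was 3.2e-22 (7.9e-21 after their adjustment). The peak was enriched 6.52-fold over input, more than 83.5% of all listed peaks. At 957 bases it was the longest of 189 3'UTR peaks made of 1 block, and the next measured 599 bases.

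Among 3'UTR peaks, 33 of 214 (15.4%) were called lower, and their median log2 fold change was -2.08. The PLBD2 peak had the smallest p of the difference among those 33 and was the longest of them. It ranked 9th by enrichment among the same peaks and 74th by log2 fold change among all 647. The PLBD2 decrease was thus moderate in size, at a wide and clearly enriched peak. Ranks by p, here and for SCD below, are a description only, since the genes were picked with this contrast known.

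SCD (ENSG00000099194) had 3 listed peaks, all on the plus strand of chromosome 10, and they did not move alike. The first peak spans chr10:100356612-100361000 and was assigned to the CDS. It consists of a block of 153 bases and a block of 267 bases, with 3969 genomic bases between them. Its log2 fold change was -0.03 (the authors' p of 0.36, adjusted 0.42), next to the CDS median of -0.12. Its fold enrichment of 2.30 was close to the median of 2.24 over all peaks.

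The second SCD peak, at chr10:100361330-100361450, begins 329 bases beyond the end of the first and was assigned to the 3'UTR. Its log2 fold change was -1.43, a ratio of 0.371 (the authors' p of 3.0e-10, adjusted 2.6e-09). The difference had the fourth smallest p among the 33 lower 3'UTR peaks, whereas the fold enrichment of 1.31 was the smallest of all 33. Only 4.48% of all listed peaks had a smaller enrichment, although the authors' p of that enrichment was 4.8e-08 (adjusted 1.8e-05). The largest decrease of SCD was therefore recorded at a short peak of 121 bases that stood little above input.

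The third SCD peak, at chr10:100364445-100364564, was also assigned to the 3'UTR and lies 2994 bases beyond the second, 262 bases from the 3' end of the gene. Its log2 fold change was 0.35 (the authors' p of 0.056, adjusted 0.095), close to the 3'UTR median of 0.38. Its fold enrichment was 1.22, and the adjusted p of that enrichment was 0.093. A total of 157 of the 647 listed peaks had an adjusted enrichment p of 0.05 or more, so the table also lists weakly supported peaks.

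**Figure D1:**
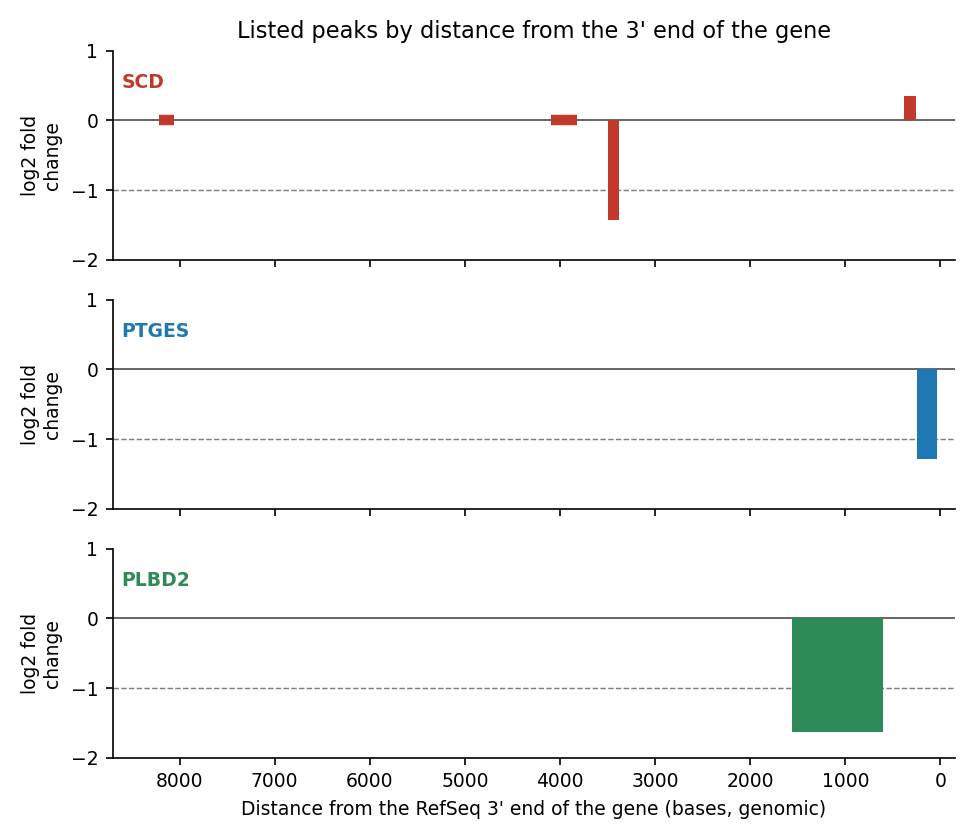
Each bar is a listed peak of SCD, PTGES or PLBD2, drawn to scale by its distance in genomic bases from the 3' end of the gene in RefSeq (horizontal axis), with its deposited log2 fold change, NAT10 ko over Control, as height, and a dashed line at -1. The SCD peak in the CDS, at -0.03, appears as 2 thick bands on the zero line, the second SCD peak reaches -1.43, and the third, nearest the 3' end, lies above 0 at 0.35.

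The values of SCD thus changed by -1.40 from the CDS peak to the neighbouring 3'UTR peak and by 1.78 between both 3'UTR peaks. Of 22 genes with at least 2 listed 3'UTR peaks, 5 had a wider range of log2 fold change between them than SCD, and the median range was 1.12. In 3 of the 22 genes, SCD, DEK and CD24, one 3'UTR peak was called lower while another lay above 0. The authors' p at the lower peak was 5.8e-06 in CD24, a cell surface glycoprotein, and 0.12 in DEK, a chromatin protein. The peak above 0 lay at 1.49 in CD24 (the authors' p of 0.026) and at 0.11 in DEK (the authors' p of 0.52). In DEK and SCD the peak above 0 lay below the 3'UTR median of 0.38, and its p was not under 0.05. The study names DEK as a target of NAT10 on other evidence as well, including acRIP-PCR, a reporter assay and mRNA half-life. Whether these DEK peaks are the sites that it describes by exon was not tested. When peaks of every region were counted, 14 of 103 genes with several peaks combined a lower peak with one above 0, and 25 had a wider range than SCD.

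**Figure D2:**
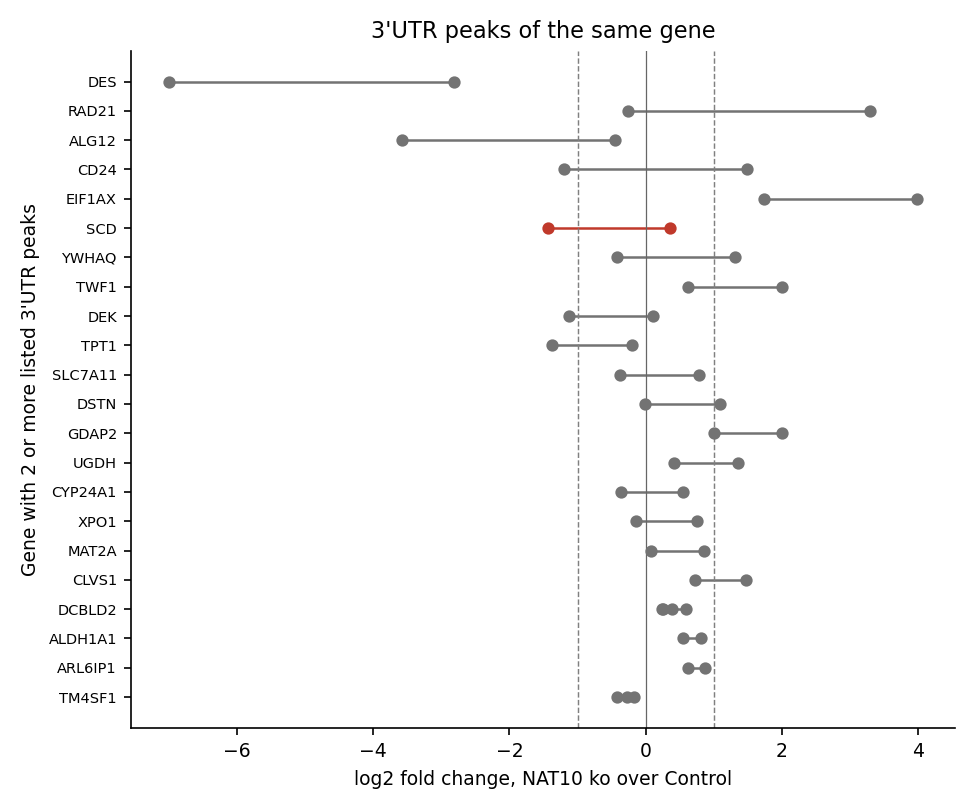
Each row is 1 of the 22 genes with 2 or more listed 3'UTR peaks, each point is a peak, and the horizontal axis is the deposited log2 fold change, NAT10 ko over Control, with dashed lines at -1 and 1. SCD, in red, spans from -1.43 to 0.35, and 5 genes above it span a wider range.

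PTGES (ENSG00000148344) had 1 listed peak, on the minus strand at chr9:129738390-129738597. The table assigned it to an exon without division into coding sequence and UTR, and it lies 41 bases from the 3' end of the gene in RefSeq. Its log2 fold change was -1.28, a ratio of 0.412, and the authors' p of the difference was 0.076 (0.12 after their adjustment). The peak was enriched 3.82-fold over input (the authors' p of 1.3e-09), more than 75.0% of all peaks. PTGES was thus well enriched over input and past the fold of the call, yet its difference between the libraries did not pass a p of 0.05. Among the 155 exon peaks it ranked 24th from the lowest.

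**Figure D3:**
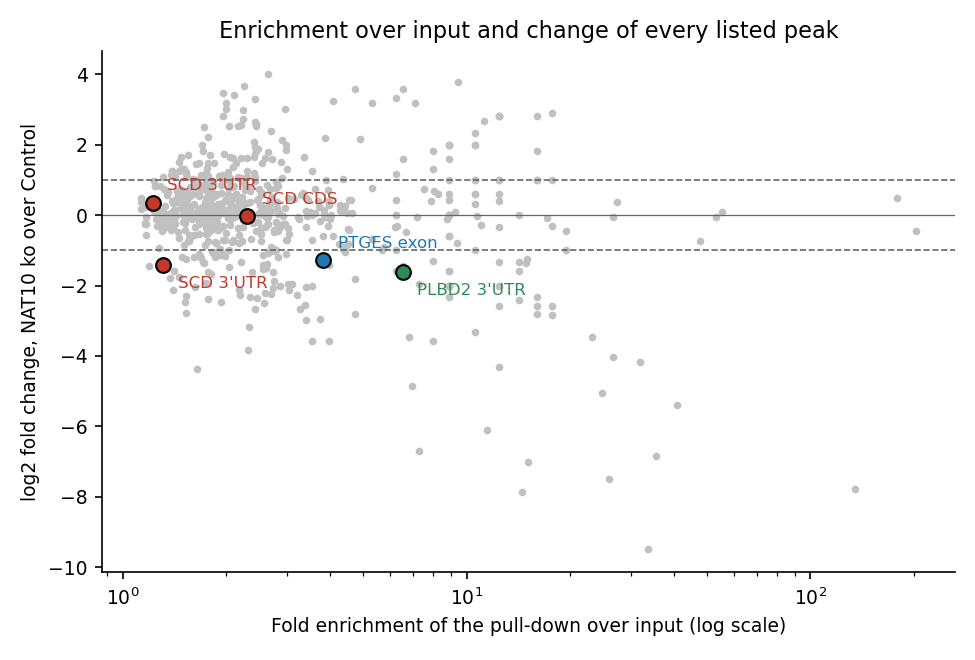
Every listed peak is drawn by its fold enrichment over input (horizontal log axis) and its deposited log2 fold change, NAT10 ko over Control (vertical axis), with dashed lines at -1 and 1 and the 5 peaks of SCD, PTGES and PLBD2 in colour. The lower SCD peak lies at the left edge, at 1.31-fold, whereas PTGES and PLBD2 lie at 3.82-fold and 6.52-fold with similar changes.

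In order of log2 fold change the 5 peaks ran from PLBD2 (-1.63) through the second SCD peak (-1.43), PTGES (-1.28) and the CDS peak of SCD (-0.03) to the third SCD peak (0.35). Whether neighbours in this order differ cannot be judged without replicates. With a deposited p of the difference under 0.05 required as well, 2 of the 5 peaks, in PLBD2 and SCD, were called lower, and the share over all listed peaks was 11.9%. The members were chosen on this same contrast, so nothing is read from their shares against these backgrounds. No other listed peak and no other RefSeq gene overlapped any of the 5 peaks. All 4 peaks outside the CDS end within 3376 bases of the 3' end of their genes. Over 206 3'UTR peaks whose distance from the RefSeq 3' end could be measured, the median distance was 1092 bases, and 97 lay within 1000 bases.

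**Figure D4:**
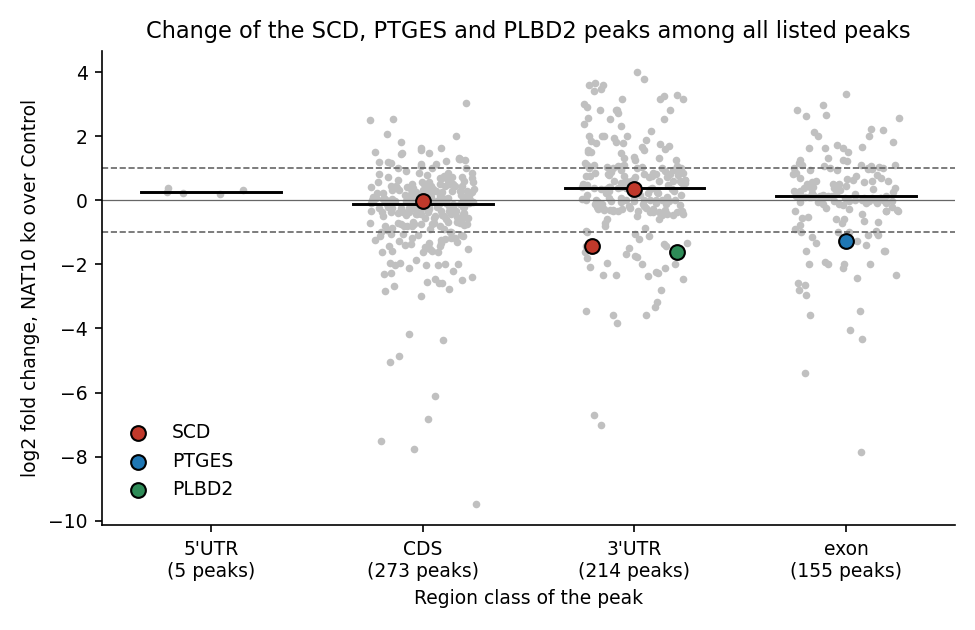
Grey points are all 647 listed peaks by the region class of the table (horizontal axis) and deposited log2 fold change, NAT10 ko over Control (vertical axis), black bars are class medians, and dashed lines mark -1 and 1. The lower peaks of SCD, PLBD2 and PTGES lie under -1 inside the cloud of their classes, and the other SCD peaks lie near the medians of the CDS and the 3'UTR.

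Other genes of the same pathways were then read from lists of 41 genes of fatty acid synthesis and desaturation, 36 of arachidonic acid and prostanoid metabolism, and 32 of lysosomal lipid hydrolysis. The lists were drawn up with earlier results of these data known, so the counts from them are a description only. Only 6 of these 109 genes had listed peaks. The 7 peaks comprised 1 called lower and 4 called higher, where 18.7% and 17.5% of all listed peaks were called, with a median log2 fold change of 1.09 against 0.05 over all peaks.

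In the fatty acid list, 1 gene had a listed peak, TECR, the trans-2-enoyl-CoA reductase that completes each cycle of fatty acid elongation. Its exon peak at chr19:14530787-14530907 was enriched 7.99-fold, and its log2 fold change was -3.58. The authors' p of the difference was 0.18, and 3 listed peaks carry exactly that log2 fold change. Fatty acid synthase, the acetyl-CoA carboxylases, the other desaturases and the regulators of the SREBP pathway had no listed peak, so SCD could not be set beside them. In the lysosomal list, 0 of 32 genes had a listed peak, which left PLBD2 without a partner.

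The listed prostanoid genes other than PTGES had values on the other side of 0. PTGES was picked with its value known, so this contrast supports nothing further. All 6 listed peaks of 5 genes lay above 0, where 51.6% of all listed peaks lay, and 4 were called higher. PTGES3, known as the HSP90 co-chaperone p23 and as a cytosolic prostaglandin E synthase, had 2 exon peaks at 1.22 (the authors' p of 7.9e-11) and 1.09 (the authors' p of 6.2e-08). HPGD, the dehydrogenase that inactivates prostaglandin E2, had a 3'UTR peak at 1.26 (the authors' p of 6.6e-04). AKR1C3, an aldo-keto reductase that makes prostaglandin F, had a CDS peak at 1.23 (the authors' p of 4.0e-11).

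The remaining prostanoid peaks were smaller in size. AKR1B1, the aldose reductase, had an exon peak at 0.65 (the authors' p of 3.0e-06). AKR1C2, a steroid reductase close in sequence to AKR1C3, had a 3'UTR peak at 0.48 (the authors' p of 2.2e-05). Reads of the AKR1C genes can be shared between paralogs, so the 2 AKR1C values are uncertain. The enrichment of these 6 peaks over input ran from 1.35-fold to 2.29-fold, below the 3.82-fold of PTGES. Neither cyclooxygenase gene and no prostaglandin receptor gene had a listed peak. The difference between PTGES and these genes has no test, since each value comes from 1 pair of libraries.

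**Figure D5:**
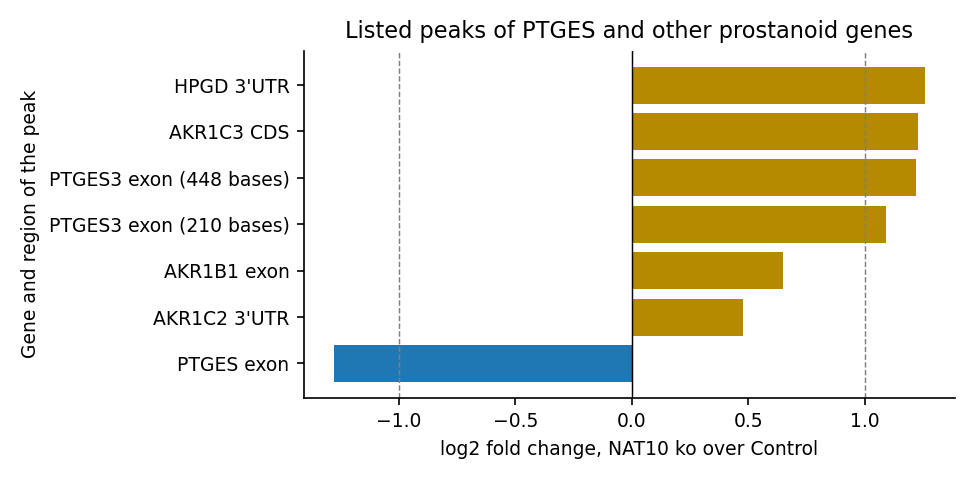
Bars are the deposited log2 fold changes, NAT10 ko over Control, of the listed peak of PTGES and of the 6 listed peaks of other prostanoid genes, with dashed lines at -1 and 1. PTGES, picked with its value known, is the only bar below 0, at -1.28, and the others run from 0.48 for AKR1C2 to 1.26 for HPGD.

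The sequences under the peaks were not used here, so C-led repeats in them were not searched.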

How the data were processed

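The labels name 1 Control and 1 NAT10 ko acRIP-seq library of A549 cells, prepared from total RNA. According to the submitters' processing notes, reads were aligned with STAR 2.7.10a to hg38. The peak caller and the test of the difference are not given in the sources used here. The authors deposited 1 table of 647 peaks, with the p-value of enrichment over input and the fold enrichment as a linear ratio. For the difference between the libraries the authors deposited a log2 fold change. Separate columns hold the deposited log10 p-values and adjusted p-values of enrichment and of the difference, while the column that the authors deposited under the name score holds the enrichment p itself. These columns are the authors' own comparison and the only measurements of the peaks, so they were printed as deposited. Per-peak p-values were taken as 10 to the power of the deposited column; Benjamini-Hochberg adjustment of the p of the difference lay at a median of 0.0336 (log10) from the deposited adjusted p.

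The table does not state the direction of the fold change. It was read as NAT10 ko over Control from a supplementary list of the study, headed as decreased after the knockout with a p under 0.05. All 107 genes in it have a listed peak under -1, and 1 of them also has a listed peak over 1. SCD, PTGES, PLBD2 and TECR are in it, so the list that set the direction holds the members themselves. The deposited p of the difference was 0.076 for PTGES and 0.18 for TECR. Only 77 listed peaks lay under -1 with that p under 0.05, fewer than these 107 genes. The heading does not say which p was meant. That heading speaks of expression, while the study reports reduced modification in 107 genes from its acRIP-seq. That the list is this set is inferred from the equal number, so the direction is likely and not stated. Starts are counted from 0 in the table, since end minus start equals the blocks at all 647 peaks, and are printed counted from 1. Gene ends came from RefSeq GRCh38.p14, matched by symbol. No test of the condition was made. The call at a log2 fold change of 1 either way, 0.5 and 1.5, the added p limits of 0.05, and centring on the median of all peaks or of the region class were compared. Restriction to enriched peaks and removal of smooth muscle markers were added after seeing the data. Members and lists were chosen with earlier results of these data known. Named genes were the members, then each gene of the lipid lists with a listed peak, and others only where a result turned on them. Counting and ranking were tested on simulated data. Python 3.11.15, pandas 2.3.3, numpy 2.4.6 and matplotlib 3.10.9 were used.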

Additional observations from a re-analysis of the deposited data

How the results depend on the processing

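The number of SCD, PTGES and PLBD2 peaks called lower was 3 of 5 at a log2 fold change of -1 and stayed 3 at -0.5, after centring on the median of all peaks, and over the 4 peaks with an adjusted enrichment p under 0.05. At -1.5 it was 1, since fewer peaks pass by construction. With the p or the adjusted p of the difference under 0.05 as well, it was 2, without PTGES. Over all listed peaks, 121 of 647 (18.7%) were lower, against 77 (11.9%) with that p and 70 (10.8%) with the adjusted p. Over peaks with an adjusted enrichment p under 0.05, 80 of 490 (16.3%) were lower. The number was 172 (26.6%) at -0.5, 84 (13%) at -1.5 and 129 (19.9%) after centring. It was 121 of 627 (19.3%) without mitochondrial peaks and 106 of 631 (16.8%) without smooth muscle markers. With 1 peak per gene, the lowest, it was 109 of 489 (22.3%). Of the 7 lipid list peaks, 1 was lower, and 0 with p under 0.05 as well, since the TECR peak had a deposited p of 0.18. Centring on the median of all peaks gave -0.08, -1.48 and 0.30 for the SCD peaks in 5′ to 3′ order, -1.33 for PTGES and -1.68 for PLBD2. Centring on the median of the region class gave 0.09, -1.81 and -0.03 for SCD, -1.40 for PTGES and -2.01 for PLBD2, so the 2 SCD peaks near 0 changed side. No paired analysis was possible because the Control and NAT10 ko groups hold 1 library each. Depth is unknown, and the caller's weakly enriched peaks, such as both 3'UTR peaks of SCD, rest on small fold differences from input. The adjusted enrichment p was 1.8e-05 for the lower SCD peak and 0.093 for the one nearest the 3' end.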

Other observations

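Further genes of lipid handling and of the lysosome had listed peaks but stood on none of the lists; these 8 genes were picked from the listed names after their values were seen. Of their 9 peaks, 3 were called lower and 1 was called higher, where 18.7% and 17.5% of all listed peaks were called. LPGAT1, an acyltransferase of lysophospholipids, had a 3'UTR peak with a log2 fold change of -2.08 (the authors' p of 2.3e-06). GRAMD1B, which carries cholesterol from the plasma membrane to the endoplasmic reticulum, had a CDS peak at -1.87 (the authors' p of 2.6e-10). CD68, a glycoprotein of lysosomes and late endosomes, had a CDS peak at -1.26 (the authors' p of 9.8e-07) with a fold enrichment of 15.0. CLVS1, a clavesin that binds phosphoinositides, had 3'UTR peaks at 1.47 (the authors' p of 0.0069) and 0.72 (the authors' p of 0.20). IDI1, the isopentenyl-diphosphate isomerase of cholesterol synthesis, lay at -0.12 (the authors' p of 0.49), and ETFA, an electron carrier of fatty acid oxidation, at -0.01 (the authors' p of 0.56).

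The 3'UTR peaks of CTSC, a lysosomal protease, and CYB5R4, a cytochrome b5 reductase, had log2 fold changes of 0.00 and 0.59, with the authors' p at 0.80 and 0.71. Both carried a fold enrichment of 8.87, a value that 21 listed peaks share exactly, and 11 listed peaks share the log2 fold change of CTSC. Of the members, PLBD2 carried a log2 fold change found at 3 listed peaks, its own included, and an enrichment found at no other. The log2 fold change of the lower SCD peak occurred at 2 listed peaks and its enrichment at 6. The other SCD peaks, in 5′ to 3′ order, shared their enrichment among 2 and 4 listed peaks and their log2 fold change with none. Neither value of PTGES occurred at another listed peak.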
